A study of Bos taurus with 15 samples.

Results

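The transcripts described here are those of 36 genes of programmed cell death in bovine (Bos taurus) blastocysts at day 7: regulators and targets of p53, the BCL2 family, the caspase cascade with its mitochondrial activators, the inhibitors of apoptosis, and the death receptors with their adaptors. They were taken by name from a list, by a rule that used no measured values. Earlier results of these data were known when the list was chosen. Of the 36, 35 are among the 17259 genes of the deposited table, and BIK is not analysed here. The study compared blastocysts collected in vivo with blastocysts grown in SOF medium for 7 days from zygotes whose cumulus cells, the somatic cells around the oocyte, had been removed (denudation) either by hand or automatically, with 5 libraries in each of the in vivo, manual and automatic groups. The labels give the cell type as blastomera, name no treatment that all groups share, give neither breed, donors nor cultures, and do not tell if each library is a single blastocyst or several pooled. With no statement that replicates are separate cultures or donors, a p-value here speaks of library-to-library spread only, and that spread may be technical. In such bulk libraries, fewer cells of a type and less RNA per cell cannot be told apart.

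Apoptosis runs through a mitochondrial and a death receptor route. In the mitochondrial route, BH3 proteins relieve BAX and BAK1 of their restraint by BCL2, BCL2L1 and MCL1, the outer membrane becomes permeable, and released cytochrome c (CYCS) joins APAF1 and CASP9 in the apoptosome, which activates effector caspases. In the receptor route, FAS or TNFRSF1A recruit CASP8 through FADD, TRADD and RIPK1. The transcription factor p53 induces members of both routes together with cell cycle inhibitors such as CDKN1A, and is itself held in check by MDM2. Scattered cell death is a known feature of the mammalian blastocyst, in the inner cell mass above all.

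Library totals ranged from 17963944 to 41974214 estimated counts. In 5 libraries (in vivo 2, in vivo 4, manual 2, automatic 2 and automatic 4), called low-detection libraries, 6977 to 8547 genes reached 10 counts; the remaining 10 libraries had 9900 to 12611. Their mitochondrial transcripts took 8.18 to 14.4% of counts, against 3.26 to 9.99% in the others. Levels are given in CPM, relative to library totals scaled by TMM, a trimmed-mean factor that was 0.543 for in vivo 2 and 0.782 to 1.24 elsewhere; the factor of in vivo 2 raises its levels, and its rank for some members depends on it. All 8 trophectoderm, 5 epiblast and 6 hypoblast markers looked at had 10 or more counts in some library. Summed trophectoderm markers spanned 12436 to 30717 CPM in vivo, 8018 to 33991 CPM in manual and 4167 to 13922 CPM in automatic libraries. Cumulus and granulosa markers (8 of 11 with 10 or more counts in some library, FOXL2 at 0 in all groups) summed to 10.5 to 64.9, 16.5 to 88.4 and 3.62 to 71.7 CPM in the same order. Stromal markers (6 of 6) summed to 0 to 2.56, 3.001 to 437 and 5.93 to 168 CPM, and leukocyte markers (5 of 7, PTPRC at 0 in all groups) to 0 to 6.95, 0.727 to 20.3 and 1.17 to 10.2 CPM. The part of these markers in the differences below was not tested.

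How much of the death machinery was seen depended on the library. Of the 35 members, 27 to 32 had 10 or more counts in each of the 10 other libraries and 18 to 25 in the low-detection libraries, with the fewest in in vivo 2. Over the 31 members that passed the filter on low counts the shares were 87.1 to 100.0% and 58.1 to 80.6%, and over all 11578 genes that passed 83.4 to 98.4% and 59.2 to 72.3%. BCL2L11, a BH3 protein, and SESN1, a p53 target of the stress response, had 0 counts in all 5 low-detection libraries and up to 16.3 and 13.5 CPM in the others. ZMAT3, an RNA-binding p53 target, stayed at or below 0.183 CPM in the 5 and reached 13.2 CPM in the others. Some members had higher levels there: CYCS spanned 1405 to 5756 CPM in the 5 low-detection libraries and 620.2 to 1917 CPM in the others. The median of the low-detection libraries lay below that of the others for 21 members and above it for 12. Since 2 of these libraries are in vivo, 1 manual and 2 automatic, several differences below are also given without them.

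**Figure D1:**
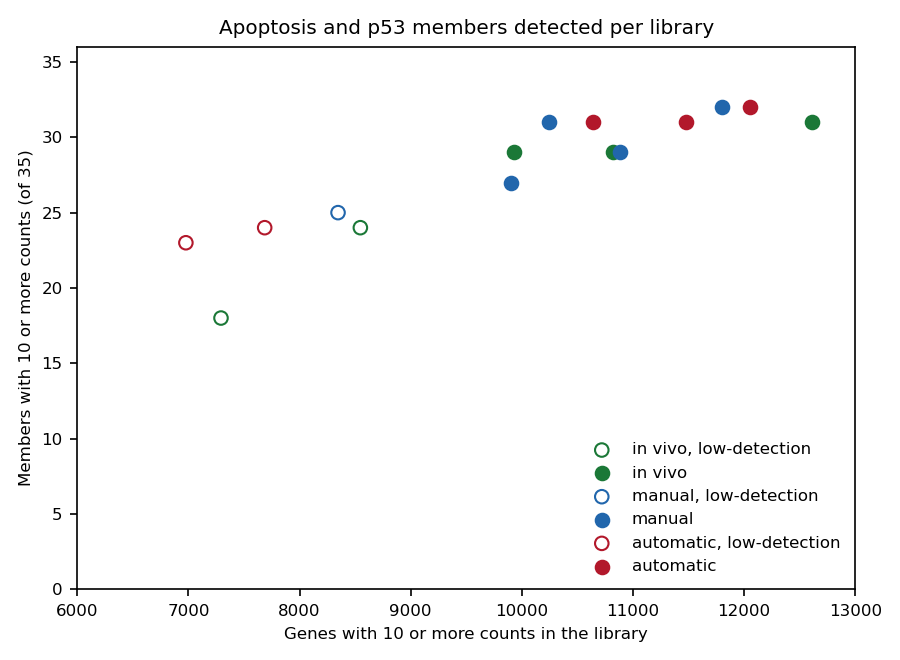
Members with 10 or more counts (y axis, of 35) against all genes with 10 or more counts (x axis) in each of the 15 libraries, coloured by group, with low-detection libraries as open circles. The 5 open circles lie at 18 to 25 members and the 10 filled ones at 27 to 32.

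Spread between libraries also differed between members. PERP, a desmosomal membrane protein induced by p53, FADD and MCL1 were the steadiest with TMM scaling, with a highest library 2.05, 2.95 and 3.46 times the lowest over all 15. BAK1 spanned 168-fold and XIAP 90.5-fold, and 19 of the 35 members had 3 or fewer counts in at least 1 library, so that no such ratio is given. BAK1 was lowest in in vivo 2 (9 counts) and XIAP in in vivo 4 (7 counts), both low-detection libraries. In the 10 other libraries BAK1 lay at 24.6 to 116 CPM and XIAP at 6.94 to 28.98 CPM. Among the 31 members tested, the SD was larger than the mean for 10 in vivo, 7 after manual and 10 after automatic denudation (32.3%, 22.6% and 32.3%), against 39.4%, 29.2% and 37.8% of all genes tested. The lowest group mean was found in vivo for 14 members, after manual for 5 and after automatic denudation for 12. Over all genes tested these shares were 35.2%, 28.2% and 36.6%. The highest mean was found for 9, 10 and 12 members in that order, against 38.3%, 30.5% and 31.2% of all genes tested.

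**Figure D2:**
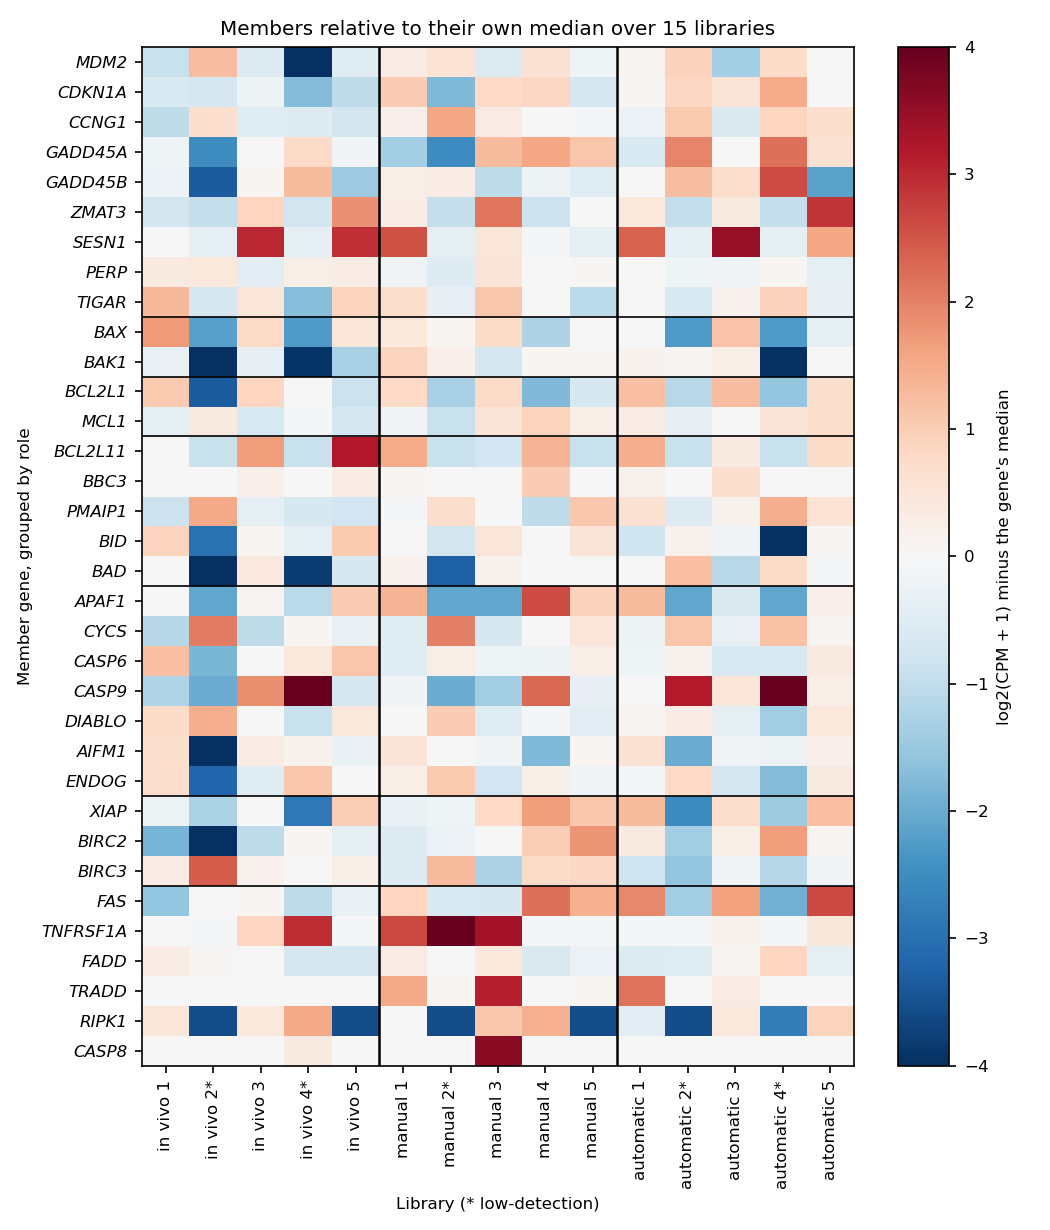
Each row is 1 of the 34 members with any count, grouped by role, and each column a library; colour is log2(CPM + 1) minus that gene's median over the 15 libraries, with an asterisk on the low-detection libraries. PERP, FADD and MCL1 stay near 0 throughout, while BAK1, BAD and AIFM1 are far below their medians in in vivo 2.

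The first question was whether culture in vitro left the transcripts of cell death at levels unlike those in vivo. Of the 31 members tested, 17 lay above and 14 below their in vivo level in the mean of the manual and automatic groups (54.8% above, against 48.2% of all genes). The median log2 fold change was 0.09 over the members and -0.04 over all genes. By the quasi-likelihood test of edgeR, fitted on all genes with Benjamini-Hochberg adjustment, 0 members passed an adjusted p of 0.05, the share of all genes called being 0.0173%. At an unadjusted p under 0.05 there was 1 member, CCNG1 (3.23% of members, against 6.13% of all genes). DESeq2 called 0 members and had 4 at an unadjusted p under 0.05, against 1.54% and 8.58% of all genes. Limma-voom with quality weights called 0 and had 6, against 0.924% and 12.0%. For 0 members did the in vitro and in vivo libraries separate, as 0.475% of all genes did. A 95% interval inside 4-fold in either direction was found for 11 members (and for 26.8% of all genes), so differences of that size were not excluded for the other 20.

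Of MDM2 and the p53 targets, 6 of 9 lay above their in vivo level (median log2 fold change 0.53) and 0 passed the test. MDM2 lay at 17.5, 78.8, 22.9, 0 and 23.2 CPM in in vivo libraries 1 to 5, at 41.04, 49.2, 22.3, 49.7 and 29.4 CPM in the manual and at 36.1, 63.9, 12.3, 55.97 and 33.1 CPM in the automatic libraries. MDM2, the ubiquitin ligase that removes p53, had 0 counts in in vivo 4 and, with TMM scaling, its highest value in in vivo 2; with library totals alone in vivo 2 stood at 42.7 CPM, below 4 in vitro libraries. The log2 difference was 0.46 ± 0.91 (SE), 1.30 without in vivo 2 and 0.24 without in vivo 4. CDKN1A lay at 4.58, 4.36, 6.40, 1.60 and 3.23 CPM in in vivo libraries 1 to 5, at 16.5, 1.55, 13.9, 14.2 and 4.42 CPM in the manual and at 7.88, 14.3, 11.4, 23.2 and 7.59 CPM in the automatic libraries. All 5 automatic libraries of this cyclin-dependent kinase inhibitor lay above all 5 in vivo libraries, while manual 2 lay below them and manual 5 within their range. CDKN1A averaged 4.03 ± 1.77 CPM in vivo, 10.1 ± 6.66 CPM in manual and 12.9 ± 6.39 CPM in automatic libraries (SD, n = 5). Its in vitro log2 difference of 1.497 ± 0.95 (SE) had an edgeR adjusted p of 0.983 and a 95% interval from -0.49 to 3.48.

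CCNG1 lay at 263, 818, 376, 374 and 321 CPM in in vivo libraries 1 to 5, at 616, 1538, 664, 530.2 and 509.6 CPM in the manual and at 450.5, 1085, 354, 971 and 836 CPM in the automatic libraries. CCNG1 encodes cyclin G1, a p53 target that feeds back on MDM2. With TMM scaling its 3 highest libraries, manual 2, automatic 2 and automatic 4, were low-detection ones. In vivo 2 was then the highest of its group, and with library totals alone it lay at 444 CPM, below in vivo 3 at 462 CPM. The group means were 430.4 ± 222 CPM in vivo, 772 ± 433 CPM in manual and 739 ± 322 CPM in automatic libraries (SD, n = 5). The in vitro difference was log2 0.81 ± 0.37 (SE), with an unadjusted p of 0.0408 and an adjusted p of 0.805 by edgeR. Without the low-detection libraries it was 0.82 ± 0.28 (SE; edgeR adjusted p = 0.489).

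The remaining p53 targets overlapped between groups. PERP lay at 498 ± 106 CPM in vivo, 437 ± 117 CPM in manual and 401 ± 47.1 CPM in automatic libraries (SD, n = 5), and its log2 difference of -0.25 ± 0.24 (SE) had the narrowest interval of all members, -0.76 to 0.26. TIGAR, which lowers glycolytic flux, averaged 75.9 ± 51.1, 68.3 ± 38.04 and 62.4 ± 28.1 CPM in that order. GADD45A, a growth arrest and DNA damage protein, averaged 10.2 ± 6.43, 18.1 ± 14.7 and 26.7 ± 21.2 CPM, and its relative GADD45B 8.51 ± 8.90, 7.92 ± 3.06 and 21.5 ± 22.6 CPM. For both, automatic 4 was the highest of the 15 libraries. GADD45A lay at 44.7 and 53.8 CPM in the low-detection automatic 2 and automatic 4, and at 6.88, 10.9 and 17.3 CPM in the other automatic libraries. Without the low-detection libraries its log2 difference of automatic from manual went from 0.56 ± 1.04 to -0.92 ± 0.74 (SE). That of automatic from in vivo went from 1.39 ± 1.06 to 0.21 ± 0.78 (SE). ZMAT3 and SESN1 averaged 1.77 ± 2.58 and 3.69 ± 4.93 CPM in vivo, 2.01 ± 3.21 and 1.51 ± 2.82 CPM in manual, and 3.26 ± 5.61 and 4.39 ± 5.62 CPM in automatic libraries (SD, n = 5). ZMAT3 had 0 counts in 4 libraries and SESN1 in 6.

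The pore formers gave different pictures. BAX lay at 14.8, 0.0765, 7.12, 0 and 5.68 CPM in in vivo libraries 1 to 5, at 5.47, 4.08, 6.96, 1.04 and 3.79 CPM in the manual and at 3.81, 0, 9.70, 0 and 2.66 CPM in the automatic libraries. BAX was at 0 in automatic 2, automatic 4 and in vivo 4 and had 1 count in in vivo 2, all of them low-detection libraries. Its log2 difference between in vitro and in vivo was -0.58 ± 1.49 (SE), with an interval from -3.70 to 2.55, and was 0.21 without in vivo 1 and -0.93 ± 0.90 (SE) without the low-detection libraries. BAK1 lay at 50.05, 0.689, 49.8, 3.16 and 24.6 CPM in in vivo libraries 1 to 5, at 116, 72.4, 37.6, 65.2 and 64.2 CPM in the manual and at 69.4, 63.8, 72.7, 1.94 and 62.2 CPM in the automatic libraries. In 9 of 10 in vitro libraries BAK1 lay above 3 of the 5 in vivo libraries, and automatic 4 was the exception at 1.94 CPM. The mean was 25.7 ± 24.02 CPM in vivo, 70.99 ± 28.2 CPM in manual and 54.01 ± 29.4 CPM in automatic libraries (SD, n = 5), a log2 difference of 1.27 ± 0.86 (SE; edgeR adjusted p = 0.99). The difference was 0.75 ± 0.40 (SE) without the low-detection libraries.

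Of the survival proteins, BCL2 had 0 counts in all 15 libraries. A count of 0 allows up to 3 counts, or 0.0614 to 0.230 CPM depending on the library, for counting error alone and only for the transcripts the authors counted. Which BCL2 transcripts those were is not known here, so its zeros set no limit on BCL2 as a whole. BCL2L1 lay at 54.9, 1.68, 47.96, 26.2 and 13.9 CPM in in vivo libraries 1 to 5, at 45.8, 10.03, 44.96, 7.07 and 16.5 CPM in the manual and at 61.9, 11.5, 62.5, 8.35 and 43.4 CPM in the automatic libraries. BCL2L1, which holds BAX and BAK1 in check, overlapped fully between groups and did not differ beyond the spread (log2 0.08 ± 0.79, SE). MCL1 lay at 183, 308, 158, 229 and 150.4 CPM in in vivo libraries 1 to 5, at 224, 128, 343, 444 and 288 CPM in the manual and at 296, 192, 241, 344 and 384 CPM in the automatic libraries. MCL1, a survival protein of short half-life, averaged 206 ± 64.7 CPM in vivo, 286 ± 119 CPM in manual and 291 ± 77.2 CPM in automatic libraries (SD, n = 5). Its log2 difference in vitro was 0.49 ± 0.32 (SE; edgeR adjusted p = 0.99). Without the low-detection libraries the 7 in vitro values all exceeded the 3 in vivo values and the difference was 0.95 ± 0.28 (SE; edgeR adjusted p = 0.375). MCL1 was the 1 member of 32 tested to separate in that set, against 4.14% of all genes.

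The BH3 proteins, which sense stress and start the mitochondrial route, lay on both sides of the in vivo level (2 above and 2 below of 4 tested). PMAIP1 lay at 17.2, 93.9, 25.1, 20.3 and 18.7 CPM in in vivo libraries 1 to 5, at 31.2, 53.1, 32.2, 15.5 and 68.97 CPM in the manual and at 49.6, 22.2, 35.4, 90.2 and 47.7 CPM in the automatic libraries. PMAIP1, which binds MCL1, was, with TMM scaling, highest in in vivo 2 and automatic 4, and the 4 other in vivo libraries lay within 17.2 to 25.1 CPM. With library totals alone, without TMM factors, in vivo 2 lay at 50.97 CPM, the highest of its group but below 4 in vitro libraries. The log2 difference in vitro was 0.34 ± 0.61 with all libraries, 1.12 without in vivo 2 and 0.999 ± 0.48 without the low-detection ones (SE). BBC3 lay at 0, 0, 0.143, 0 and 0.220 CPM in in vivo libraries 1 to 5, at 0.0614, 0, 0, 1.01 and 0 CPM in the manual and at 0.125, 0, 0.580, 0 and 0 CPM in the automatic libraries. BBC3, a p53-induced BH3 protein, reached 10 counts only in manual 4 and automatic 3 and was not tested. BCL2L11 averaged 4.41 ± 6.95, 1.61 ± 2.16 and 1.53 ± 1.72 CPM (SD, n = 5) in the in vivo, manual and automatic groups. BID, which CASP8 cleaves to join the 2 routes, averaged 43.5 ± 29.9, 40.2 ± 12.9 and 27.1 ± 17.03 CPM, and BAD, which growth factor signals inactivate, 11.1 ± 10.9, 15.9 ± 8.39 and 23.97 ± 13.9 CPM. BAD was lowest in in vivo 2, in vivo 4 and manual 2, at 1.03 CPM or less, all low-detection libraries. The 2 other low-detection libraries, automatic 2 and automatic 4, were its highest of the 15, at 43.5 and 32.2 CPM. Its log2 difference of automatic from in vivo was 1.11 ± 1.17 with all libraries and -0.30 ± 0.60 without the low-detection ones (SE).

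In the apoptosome and among caspases and mitochondrial proteins, 5 of 7 lay below their in vivo level and 0 passed. APAF1 lay at 3.19, 0, 3.48, 1.01 and 7.41 CPM in in vivo libraries 1 to 5, at 9.77, 0, 0, 24.4 and 6.90 CPM in the manual and at 9.03, 0, 1.84, 0 and 3.85 CPM in the automatic libraries. APAF1, the apoptosome scaffold, had 0 counts in 5 libraries, of which manual 3 was not a low-detection one, and was highest in manual 4. Its log2 difference in vitro was 0.70 ± 1.76 (SE), and ran from 0.18 without automatic 1 to 1.35 without in vivo 5. CASP9 lay at 0.725, 0, 13.5, 72.4 and 1.47 CPM in in vivo libraries 1 to 5, at 2.70, 0, 0.506, 18.6 and 2.16 CPM in the manual and at 2.97, 34.5, 4.60, 62.99 and 3.74 CPM in the automatic libraries. CASP9, the initiator caspase of the apoptosome, ranged from 0 to 72.4 CPM within the low-detection libraries, where in vivo 4, automatic 4 and automatic 2 were the 3 highest of the 15 and in vivo 2 and manual 2 were at 0. Its log2 difference in vitro, -0.78 ± 1.40 (SE), turned to 1.35 without in vivo 4, and was -0.11 ± 1.25 (SE) without the low-detection libraries.

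CASP6 lay at 318, 38.04, 139, 187 and 298 CPM in in vivo libraries 1 to 5, at 97.95, 163, 122, 119 and 169 CPM in the manual and at 124, 153, 89.6, 89.98 and 177 CPM in the automatic libraries. CASP6, an effector caspase that cuts lamins, averaged 196 ± 116 CPM in vivo, 134 ± 30.5 CPM in manual and 127 ± 38.7 CPM in automatic libraries (SD, n = 5), with in vivo 2 the lowest of the 15 libraries and in vivo 1 and in vivo 5 the highest. The log2 difference in vitro was -0.59 ± 0.39 with all libraries (SE; edgeR adjusted p = 0.99) and -0.97 ± 0.31 without the low-detection ones (SE; edgeR adjusted p = 0.427); without in vivo 1 alone it was -0.35. CYCS, whose processed copies in the genome make its counts less certain, averaged 1912 ± 2173, 2116 ± 1911 and 1948 ± 966 CPM in the in vivo, manual and automatic groups. DIABLO, which displaces inhibitors of apoptosis from caspases, averaged 147 ± 84.4, 109 ± 54.9 and 95.1 ± 38.7 CPM. AIFM1, a mitochondrial flavoprotein, averaged 68.9 ± 42.1, 66.5 ± 29.4 and 66.9 ± 33.5 CPM, and ENDOG, a mitochondrial nuclease, 9.005 ± 7.04, 9.58 ± 4.91 and 7.73 ± 5.03 CPM. The groups overlapped for all 4. In vivo 2 was the lowest of the 15 libraries for AIFM1 and ENDOG and, with TMM scaling, the highest for CYCS and DIABLO; with library totals alone 1 library lay above it for CYCS and 2 for DIABLO.

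Of the 3 inhibitors of apoptosis, 2 lay above and 1 below the in vivo level, and 0 passed. XIAP lay at 7.27, 2.91, 8.49, 0.320 and 17.9 CPM in in vivo libraries 1 to 5, at 6.94, 7.41, 15.4, 28.98 and 19.1 CPM in the manual and at 21.8, 0.623, 14.6, 2.54 and 21.1 CPM in the automatic libraries. XIAP, which blocks caspases directly, was at its lowest in in vivo 4, automatic 2, automatic 4 and in vivo 2, all low-detection libraries, and its log2 difference in vitro was 0.89 ± 1.04 (SE), from 0.59 without in vivo 4 to 1.53 without in vivo 5. BIRC2 lay at 4.85, 0, 9.41, 21.5 and 15.3 CPM in in vivo libraries 1 to 5, at 13.9, 16.8, 20.1, 40.3 and 70.8 CPM in the manual and at 26.1, 7.17, 23.8, 65.8 and 21.9 CPM in the automatic libraries. BIRC2, a ubiquitin ligase of the TNF receptor complex, averaged 10.2 ± 8.45 CPM in vivo, 32.4 ± 23.8 CPM in manual and 28.96 ± 21.9 CPM in automatic libraries (SD, n = 5). Its log2 difference in vitro was 1.58 ± 1.002 with all libraries and 1.59 ± 0.61 without the low-detection ones (SE; edgeR adjusted p = 0.983 and 0.534). BIRC3 lay at 31.1, 137, 28.2, 24.8 and 29.5 CPM in in vivo libraries 1 to 5, at 17.2, 61.2, 9.86, 43.3 and 44.9 CPM in the manual and at 13.8, 7.75, 22.8, 10.8 and 22.9 CPM in the automatic libraries. For BIRC3, a close relative of BIRC2 with which it may share reads, TMM-scaled levels in all 5 automatic libraries lay below all 5 in vivo libraries, while manual 1 and manual 3 lay below and the 3 other manual libraries above the lowest in vivo value. The difference in vitro was -1.09 ± 0.63 (SE), and -0.26 without in vivo 2, whose 137 CPM was the highest of all libraries.

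Death receptors and their adaptors were mostly sparse. FAS lay at 0.272, 2.76, 2.99, 0.869 and 2.05 CPM in in vivo libraries 1 to 5, at 5.87, 1.45, 1.39, 16.3 and 9.16 CPM in the manual and at 13.2, 0.429, 10.5, 0 and 22.4 CPM in the automatic libraries. In vivo, no library of FAS exceeded 2.99 CPM, and 6 of 10 in vitro libraries lay above that value. Of the 4 that did not, manual 2, automatic 2 and automatic 4 were low-detection libraries and manual 3 was not. The log2 difference was 2.16 ± 1.40 with all libraries and 2.68 ± 1.07 without the low-detection ones (SE; edgeR adjusted p = 0.986 and 0.551). TNFRSF1A lay at 0.0227, 0, 0.839, 6.86 and 0 CPM in in vivo libraries 1 to 5, at 5.31, 24.7, 9.20, 0 and 0 CPM in the manual and at 0, 0, 0.121, 0 and 0.404 CPM in the automatic libraries. TNFRSF1A, a receptor for TNF, had 10 or more counts in 3 manual, 2 in vivo and 1 automatic library. Its log2 difference in vitro was -0.73 ± 1.75 (SE), 2.04 without in vivo 4 and 1.48 ± 2.35 (SE) without the low-detection libraries. CASP8 lay at 0, 0, 0, 0.274 and 0 CPM in in vivo libraries 1 to 5, at 0, 0, 11.1, 0 and 0 CPM in the manual and at 0, 0, 0, 0 and 0 CPM in the automatic libraries. CASP8, the initiator caspase of the receptor route, thus had counts in manual 3 and in vivo 4 alone and was not tested. As for BCL2, how fully the counted transcripts cover CASP8 is not known here. FADD, the adaptor of FAS, averaged 59.1 ± 17.5, 67.1 ± 18.4 and 65.7 ± 31.1 CPM in the in vivo, manual and automatic groups (SD, n = 5). RIPK1, a kinase of the TNF receptor complex, averaged 12.7 ± 13.6, 13.1 ± 13.96 and 8.83 ± 8.97 CPM and had 0 counts in 5 libraries. TRADD, the adaptor of TNFRSF1A, had 0 counts in all 5 in vivo libraries and counts in 4 manual and 2 automatic ones, up to 7.65 CPM in manual 3, and was too low to be tested with all libraries.

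**Figure D3:**
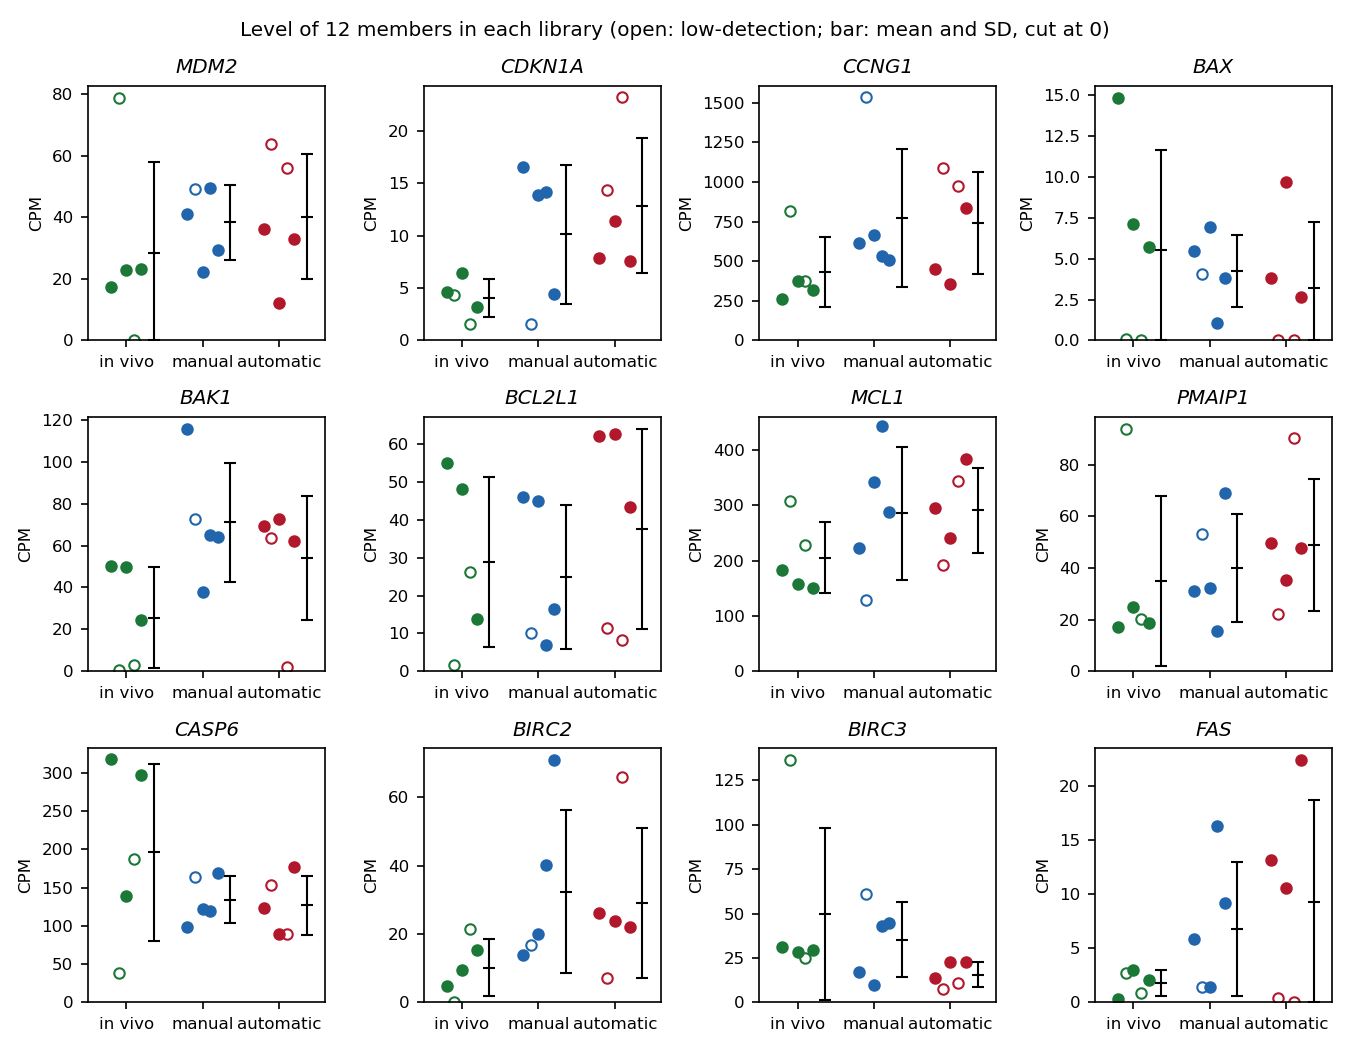
CPM of 12 members in each library by group, with open circles for low-detection libraries and a bar for the mean and SD (cut at 0) of the 5 libraries. The automatic libraries lie above all in vivo libraries for CDKN1A and, with TMM scaling, below them for BIRC3; every other panel overlaps between groups.

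Leaving out the 5 low-detection libraries, a choice made after seeing the data, left 7 in vitro and 3 in vivo libraries and 32 members to test. Again 0 were called by edgeR (0.0568% of all genes were). At an unadjusted p under 0.05 there were 7 members (against 8.33% of all genes): MCL1, CCNG1, BIRC2, FAS, TRADD and CYCS above and CASP6 below the in vivo level. TRADD had 0 counts in every in vivo library and entered the test through its in vitro counts alone, so it could only lie above in vivo. Without it, 6 members are left to set beside that share. Of all genes, 4.19% had such a p above and 4.14% below. The smallest adjusted p among members was 0.375. The members' median log2 fold change was 0.30, against -0.01 over all genes, and the 95% interval lay within 4-fold for 16 of 32 members and 43.8% of all genes.

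The second question was whether the way of denudation left a trace in these genes. Of the 31 members, 13 lay above and 18 below their manual level after automatic denudation (47.1% of all genes lay above), with a median log2 fold change of -0.08 against -0.05 over all genes. EdgeR called 0 members (and 0.00% of all genes), and 1 had an unadjusted p under 0.05 (3.23%, against 1.48% of all genes). DESeq2 called 0 members and had 1 at an unadjusted p under 0.05, against 0.420% and 3.97% of all genes by that tool, and limma-voom 0 and 2, against 0.00864% and 6.57%. For 0 members did the 2 groups separate (0.665% of all genes). The 95% interval was within 4-fold for 10 members (24.0% of all genes), among them CCNG1 (-0.92 to 0.80), MCL1 (-0.73 to 0.79), PERP (-0.72 to 0.47), CASP6 (-1.05 to 0.89) and FADD (-1.07 to 1.01).

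The 1 member was TNFRSF1A, at log2 -6.14 ± 2.64 (SE; edgeR unadjusted p = 0.0318, adjusted p = 0.9999). As its values above show, the fit sets 3 manual libraries with counts against 5 automatic libraries near or at 0, while manual 4 and manual 5 were also at 0 and the groups overlapped. BIRC3 was next, at -1.18 ± 0.77 (SE; edgeR adjusted p = 0.9999), with group means of 35.3 ± 21.2 CPM in manual and 15.6 ± 6.94 CPM in automatic libraries (SD, n = 5). CASP9 differed by 2.18 ± 1.73 and GADD45B by 1.44 ± 1.28 (SE), each less than 2 SE. Every one of the 9 p53 genes had an interval that included 0. Without the low-detection libraries CASP9 turned to -0.66 ± 1.40, and GADD45B and BIRC3 were at 0.29 ± 0.99 and -0.53 ± 0.58 (SE). In that set 0 of 32 members were called by edgeR (0.00811% of all genes) or had an unadjusted p under 0.05 (4.08%), and the interval was within 4-fold for 18 (and for 41.0% of all genes).

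**Figure D4:**
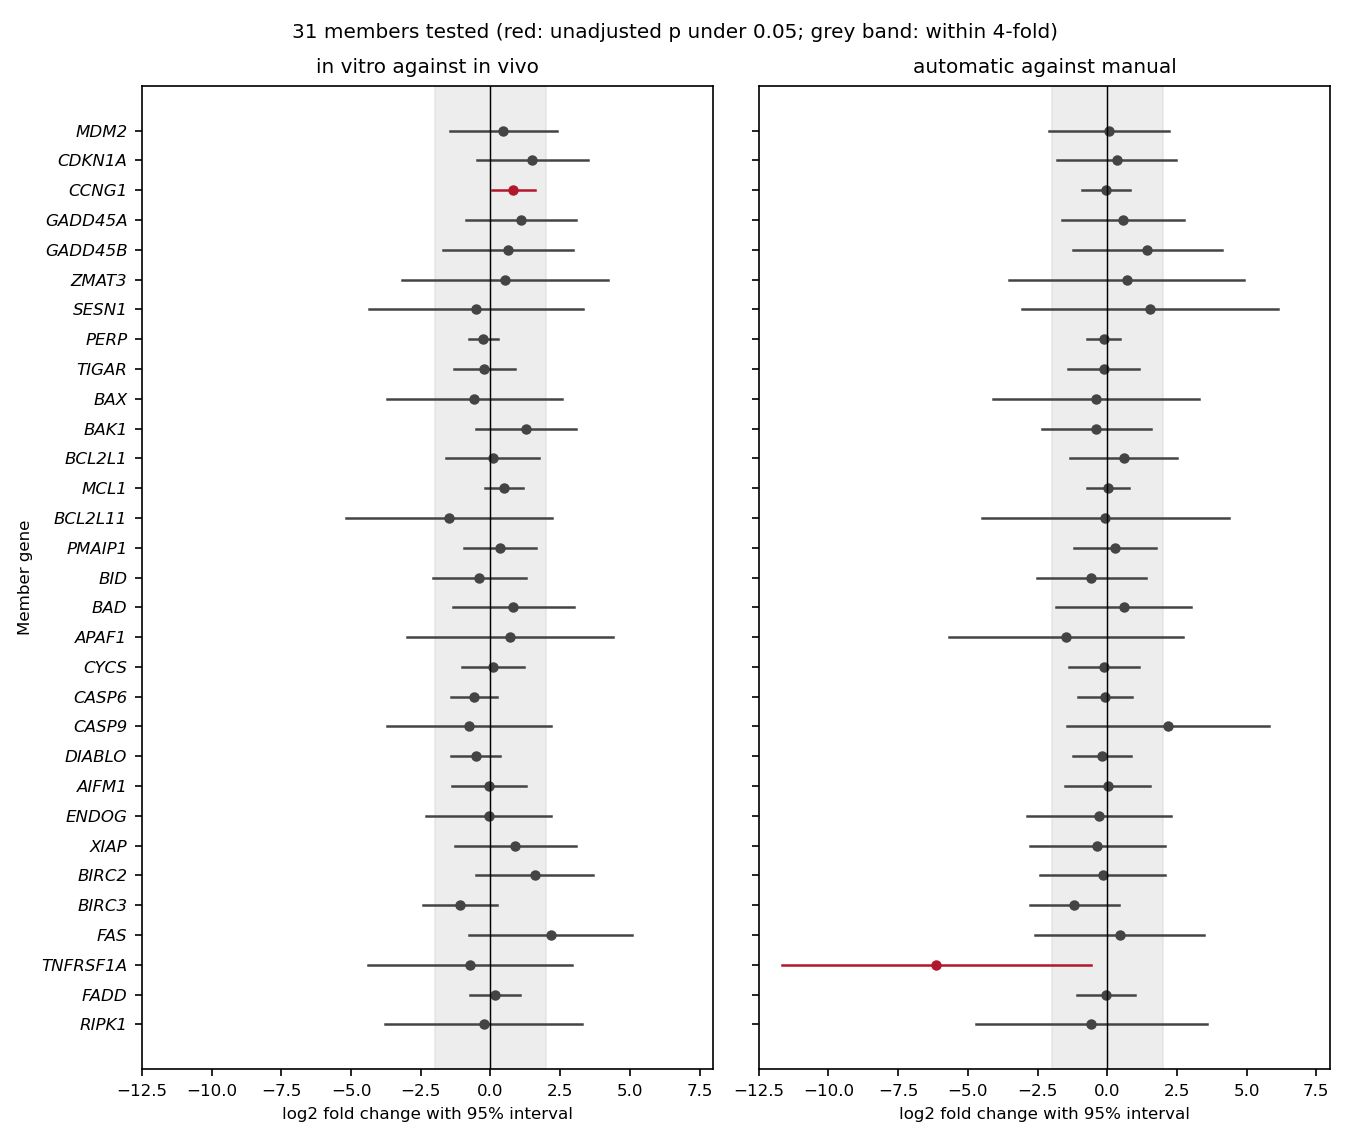
Log2 fold change (point) and 95% interval (line) of the 31 members tested, for in vitro against in vivo (left) and automatic against manual denudation (right), with the range within 4-fold shaded and members at an unadjusted p under 0.05 in red. These are CCNG1 on the left and TNFRSF1A on the right; the intervals of all other members include 0.

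Set singly against in vivo, the in vitro groups share the same 5 in vivo libraries, so their results are not independent of each other. After automatic denudation 18 of 31 members lay above and 13 below (47.6% of all genes lay above), 0 were called by edgeR (against 0.0173% of all genes) and 1, BIRC3, had an unadjusted p under 0.05 (against 5.36%). Its log2 difference was -1.68 ± 0.78 (SE; edgeR adjusted p = 0.919), or -0.85 without in vivo 2 and -0.57 ± 0.61 without the 5 low-detection libraries. The groups separated for 2 of 31 members, BIRC3 below and CDKN1A above (6.45%, against 2.07% of all genes), and CDKN1A differed by 1.67 ± 1.05 (SE; edgeR adjusted p = 0.9997). With library totals alone, without TMM factors, CDKN1A still separated, while for BIRC3 the highest automatic library, at 28.2 CPM, passed the lowest in vivo library, at 22.2 CPM. After manual denudation 18 lay above and 13 below (49.4% of all genes lay above), 0 were called (as were 0.00% of all genes), 0 had an unadjusted p under 0.05 (against 3.39%) and 0 separated (against 1.36%). After automatic denudation DESeq2 called 0 members and had 4 at an unadjusted p under 0.05 (against 1.34% and 8.82% of all genes), and limma-voom 0 and 5 (against 0.821% and 13.1%). After manual denudation DESeq2 called 0 and had 2 (against 0.848% and 6.48%), and limma-voom 0 and 5 (against 0.0173% and 9.08%). CCNG1 differed from in vivo by 0.78 ± 0.41 after automatic and 0.84 ± 0.41 after manual denudation (SE), the latter 0.45 without manual 2. MCL1 differed by 0.50 ± 0.36 and 0.47 ± 0.36, and FAS by 2.38 ± 1.52 and 1.93 ± 1.49 (SE). For CDKN1A the difference after manual denudation was 1.32 ± 1.04, beside 1.67 ± 1.05 after automatic denudation (SE).

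With the 5 low-detection libraries left out, the counts at an unadjusted p were larger. After automatic denudation 0 of 32 members were called by edgeR (against 0.0730% of all genes), and 6 had an unadjusted p under 0.05. Of these, CCNG1, FAS, MCL1 and TRADD lay above in vivo (against 3.59% of all genes) and BID and CASP6 below (against 3.41%). The 3 automatic and 3 in vivo libraries separated for 10 members, 7 above (BAK1, BIRC2, CDKN1A, CYCS, FAS, MCL1 and PMAIP1) and 3 below (BID, BIRC3 and TIGAR), against 17.2% of all genes. After manual denudation 0 were called (against 0.0243% of all genes), and 5 had an unadjusted p under 0.05: BIRC2, CCNG1, MCL1 and TRADD above (against 4.32%) and CASP6 below (against 3.10%). CCNG1 and MCL1 separated there, against 7.80% of all genes. TRADD again could only lie above in vivo. Both sets of values rest on the same 3 in vivo libraries. MCL1 differed from in vivo by 0.91 ± 0.31 after automatic and 0.98 ± 0.30 after manual denudation (SE). CDKN1A differed from in vivo by 0.93 ± 0.85 after automatic and 1.37 ± 0.82 after manual denudation, and by -0.43 ± 0.80 between automatic and manual (SE).

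A second list held 92 further genes of the same pathways, of which 85 were in the table and 73 were tested. In vitro, 42 lay above and 31 below their in vivo level (57.5% above, against 48.2% of all genes). The median log2 fold change was 0.21. EdgeR called 0 (against 0.0173% of all genes). At an unadjusted p under 0.05 there were 6, 4 above and 2 below (8.22%, against 6.13% of all genes). The smallest p was that of TNFRSF12A, a receptor of the TNF family that binds the cytokine TWEAK. TNFRSF12A lay at 60.1, 40.3, 46.5, 16.8 and 59.2 CPM in in vivo libraries 1 to 5, at 101, 205, 141, 93.4 and 137 CPM in the manual and at 63.6, 134, 119, 223 and 80.4 CPM in the automatic libraries. Its lowest in vitro library exceeded its highest in vivo library, and it was the only gene of the list for which this held (0.475% of all genes). The log2 difference was 1.54 ± 0.44 (SE), with an adjusted p of 0.491 by edgeR and 0.0114 by DESeq2, and 0.88 ± 0.31 (SE; edgeR adjusted p = 0.495) without the low-detection libraries.

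LTBR, the lymphotoxin receptor, averaged 24.3 ± 46.7 CPM in vivo, 2.15 ± 2.51 CPM in manual and 0.470 ± 0.983 CPM in automatic libraries (SD, n = 5). Its in vivo mean rests on the low-detection in vivo 2, at 108 CPM, while the other in vivo libraries lay at 0.732 to 7.11 CPM and the manual ones at 0 to 5.75 CPM. CYLD, a deubiquitinase of the TNF receptor complex, averaged 3.004 ± 4.27, 31.3 ± 20.6 and 17.7 ± 13.01 CPM, and XPC, a DNA damage sensor induced by p53, 26.04 ± 22.2, 6.63 ± 4.27 and 4.47 ± 4.48 CPM in the same order. Their log2 differences in vitro were -4.58 ± 1.65, 2.96 ± 1.21 and -2.26 ± 0.92 (SE), with edgeR adjusted p of 0.632, 0.712 and 0.715. XPC was also highest in in vivo 2, at 62.8 CPM with TMM scaling. Without in vivo 2, LTBR was at -1.73 and XPC at -1.61. Without the low-detection libraries, LTBR and CYLD were at -1.55 ± 1.67 and 1.81 ± 0.997 (SE). After manual denudation PLK2, a p53-induced kinase, lay at 62.5, 82.3, 64.97, 49.3 and 65.8 CPM, all above the in vivo libraries at 10.2, 15.2, 18.5, 0 and 2.90 CPM (log2 2.80 ± 1.07, SE; edgeR adjusted p = 0.9997). PLK2 and TNFRSF12A were the 2 genes of the list that separated there (2.74%, against 1.36% of all genes). Automatic libraries 1 to 5 had PLK2 at 35.4, 4.79, 30.8, 61.3 and 31.3 CPM, and all but automatic 2 also lay above every in vivo library. GADD45G, the third GADD45 gene, had counts in 3 manual, 3 automatic and 1 in vivo library, with an in vivo mean of 0.0573 CPM. It entered the test through its in vitro counts, so it was all but bound to lie above in vivo. Between automatic and manual denudation 0 of the 73 genes were called (against 0.00% of all genes) or had an unadjusted p under 0.05 (against 1.48%). Above lay 30 and below 43 (41.1% above, against 47.1% of all genes). In automatic against in vivo 3 had such a p, 1 above and 2 below (4.11%, against 5.36% of all genes). In manual against in vivo 4 did, all above and GADD45G among them (5.48%, against 3.39% of all genes). Called were 0 in each (against 0.0173% and 0.00% of all genes). Among the 10 libraries that were not low-detection, 0 of 76 genes were called in any of the 4 comparisons (against 0.00811 to 0.0730% of all genes). At an unadjusted p under 0.05 by edgeR there were 11 in vitro against in vivo (14.5%, against 8.33% of all genes). Automatic against manual had 1 (1.32%, against 4.08%). For automatic against in vivo there were 5, all above (against 3.59% of all genes above and 3.41% below). Manual against in vivo had 12, with 10 above (against 4.32%) and 2 below (against 3.10%).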

How the data were processed

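Poly(A) RNA (minimum RIN 8.4, 50 to 100 ng of total RNA, 15 PCR cycles, a dUTP-stranded kit with molecular identifiers, per the labels' protocols) was sequenced from 15 libraries. Estimated counts for each gene, in whole numbers, were deposited by the authors as 1 table; FastQC, fastp and kallisto are named per the submitters' processing notes, without versions or roles. Build, transcript set, strand setting and any collapsing by molecular identifier were each not given in the sources used here. No coordinates are printed, and genes with close copies (CYCS, BIRC2 and BIRC3) are less certain. All 35 members matched a RefSeq symbol of ARS-UCD2.0, used for names alone. A line without a gene name held no values and was left out. Columns were assigned by library names.

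Estimated counts, whole already, were tested in R 4.3.3 with edgeR 4.0.16 (quasi-likelihood, robust, TMM, filterByExpr), all 15 libraries in 1 fit with a mean per group, Benjamini-Hochberg adjusted over all 11578 genes kept and called under 0.05. SE was taken from F as |log2 fold change|/√F. Alternatives used DESeq2 1.42.0, limma 3.58.1, other scalings and filters, a replicate block, and left-out libraries. The test recovered known changes in data simulated at a fixed spread that was not taken from these libraries. Recovery at the spread of these libraries is not given here, so that check does not show the power for these members. Members, lists and alternatives were chosen with earlier results of these data known. Named in full were members with an unadjusted p under 0.05 in any comparison and MDM2, CDKN1A, BAX, BAK1, BCL2, BCL2L1, MCL1, BBC3, PMAIP1, APAF1, CASP8, CASP9, XIAP, FAS and TNFRSF1A; BIRC2 and CASP6 were added, and GADD45G, PLK2, CYLD, XPC, LTBR and TNFRSF12A came from the second list as its called genes or, with none called, up to 4 of the smallest p under 0.05. No 2 replicates were as alike as sampling noise would make them (chi-square over degrees of freedom, minimum 184).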

Additional observations from a re-analysis of the deposited data

Results flagged for a closer look

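Among the genes named in full with values above 0, 53 groups of 5 libraries were looked at. A library was flagged if it stood apart from the other 4 by a gap of over 0.71 of the group's range. Independent normal values pass that limit in about 1 of 20 groups. CPM here are skewed and hold zeros, so that rate does not apply and the count is not set against it. With 4 libraries at 0, as for CASP8, the gap is the whole range by construction. In all, 12 were flagged, 11 as the highest and 1 as the lowest. Of the 12, 8 were low-detection libraries. With library totals alone, without TMM factors, 3 of the 12 no longer stood apart by that gap: in vivo 2 for CCNG1, where in vivo 3 was then higher, in vivo 2 for PMAIP1 (a ratio of 0.612) and automatic 4 for BAK1 (0.665). With TMM scaling, in vivo 2 stood above the rest of its group for BIRC3 (137 CPM, next 31.1), CCNG1 (818 CPM, next 376) and PMAIP1 (93.9 CPM, next 25.1). In vivo 4 did so for CASP9 (72.4 CPM, next 13.5), TNFRSF1A (6.86 CPM, next 0.839) and CASP8 (0.274 CPM, the others at 0). Manual 2 was highest for CCNG1 (1538 CPM, next 664), manual 3 for CASP8 (11.1 CPM, the others at 0), and manual 4 for CASP9 (18.6 CPM, next 2.70) and BBC3 (1.01 CPM, next 0.0614). Automatic 3 was highest for BBC3 (0.580 CPM, next 0.125), and automatic 4 was lowest for BAK1 (1.94 CPM, next 62.2).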

How the results depend on the processing

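In each of the 4 comparisons 0 members were called under every alternative run: scaling by library size alone or by DESeq2 size factors, DESeq2, limma-voom with quality weights, no filter, 1 CPM in 5 libraries, the 2 groups compared alone (not for in vitro against in vivo, which uses all groups), each of the 15 libraries left out, and, added after seeing the data, no low-detection libraries or detected genes per library as a covariate. With the replicate number as a block 0 members were called in any comparison. The labels do not say that the numbers pair libraries, and the data do not settle it. Correlations of the 15 same-numbered pairs ran from 0.00137 to 0.380, with 8 over 0.1, and 8 of 15 libraries correlated best with a library of their own number. All 5 low-detection libraries carry number 2 or 4, while manual 4 is not one of them. The main fit takes no account of the numbers, and what they stand for is not known here. With the block, BAX, CASP9 and TNFRSF1A turned in vitro to 1.01, 0.16 and 1.45. By limma-voom, BCL2L1, CASP9 and TNFRSF1A turned to -0.0839, 0.14 and 0.29. TNFRSF1A was at 1.48 without the low-detection libraries and APAF1 at -1.18 with the covariate. Over fits without 1 library BCL2L1 ranged from -0.21 to 0.44, BAX from -1.08 to 0.21, CASP9 from -1.71 to 1.35 and TNFRSF1A from -1.54 to 2.04; the cause was not tested. Members at an unadjusted p under 0.05 numbered 0 to 4 in vitro against in vivo over those fits (4 without in vivo 2), and BIRC3, CDKN1A, CCNG1, MCL1, FAS, BAK1, BIRC2 and CASP6 kept their direction. Scaling by library size alone moved the median of all genes in vitro against in vivo from -0.04 to 0.10 and reversed no member named in full there. For the 19 members with 3 or fewer counts in some library, those low counts limit what can be seen, and their cause was not tested.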

Other observations

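Other genes of the second list that lie outside the naming rule, chosen after their values were seen, were DDIT3, TRIB3 and CHEK1. DDIT3, a stress-induced transcription factor that can promote apoptosis, averaged 46.4 ± 46.1 CPM in vivo, 108 ± 45.5 CPM in manual and 113 ± 46.5 CPM in automatic libraries (SD, n = 5), a log2 difference in vitro of 1.25 ± 0.69 (SE; edgeR adjusted p = 0.92). TRIB3, a pseudokinase that DDIT3 induces, averaged 5.19 ± 7.41, 12.9 ± 6.48 and 35.04 ± 24.8 CPM in the same order (2.03 ± 1.51, SE; edgeR adjusted p = 0.999). Without the low-detection libraries DDIT3 and TRIB3 were at 3.02 ± 0.79 and 3.05 ± 1.26 (SE; edgeR adjusted p = 0.305 and 0.57). CHEK1, a checkpoint kinase of replication stress, averaged 61.2 ± 34.3, 126 ± 56.3 and 105 ± 47.2 CPM (0.91 ± 0.48, SE; edgeR adjusted p = 0.885). None of the 3 passed the test.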
